A study of Arabidopsis thaliana with 12 samples.

Results

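GASA genes encode small secreted peptides whose coding sequence ends in a stretch with a fixed number of cysteines, and 9 genes of this family were followed here: *GASA1* (AT1G75750), *GASA2* (AT4G09610), *GASA3* (AT4G09600), *GASA4* (AT5G15230), *GASA5* (AT3G02885), *GASA6* (AT1G74670), *GASA9* (AT1G22690), *GASA10* (AT5G59845) and *GASA14* (AT5G14920). They are 9 of the 32954 genes in the deposited expression table of Arabidopsis leaves. The 9 genes were chosen by name, with the fall of *GASA1* in the overexpressor already known from these data, so every value of these genes in the overexpressor is given below as a description and without a test. The libraries of the knock-out line played no part in that choice, and the members were tested there. The wild-type libraries are shared by both comparisons.

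All plants were *Arabidopsis thaliana* of the ecotype Col-0. They had grown for 24 days in short days (10 h of light) and then for 10 to 12 days in continuous light of 100 to 120 µmol quanta m-2 s-1 before leaf tissue was taken. The study compared 3 genotypes with 4 libraries each. Wild types carried no transgene. The knock-out line *glct2* carries a T-DNA in the first intron of *pGlcT2*, the gene of a glucose transporter in the inner envelope of the chloroplast. In the overexpressor line #5, the *pGlcT2* coding sequence is driven by the 35S promoter, which is active in nearly all plant tissues. The study describes its overexpressors as made on the basis of *glct2*, so the overexpressor may carry the T-DNA as well. Each mutant genotype is 1 line, so the effect of the line and that of *pGlcT2* cannot be told apart.

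The GASA family (gibberellic acid stimulated in Arabidopsis) is named after its response to gibberellin, a hormone that promotes germination, elongation and flowering. Gibberellin binds a GID1 receptor, the complex recruits DELLA proteins for breakdown by an F-box protein, and transcription that the DELLA proteins had held back or supported then changes. GASA peptides are known for roles in cell elongation, flowering and germination, and some of them respond to brassinosteroid, abscisic acid, sugars or oxidative stress besides gibberellin. Several members are used as readouts of the gibberellin response, but individual members can respond in opposite directions.

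The sequence that defines the family is shown first, because it is what these genes share although their transcript levels differed in direction between the genotypes. In the RefSeq annotation of TAIR10.1, whose gene starts and ends were the same as in the deposited table for 99.95% of 32536 genes found in both, all 9 members and 6 further GASA genes had 12 codons for cysteine among the last 66 codons. The coding sequence of 8 members is given from the first of these codons to the last codon before the stop, spliced and 5′ to 3′ on the coding strand, with the codons TGT and TGC for cysteine in capitals. 
GASA1: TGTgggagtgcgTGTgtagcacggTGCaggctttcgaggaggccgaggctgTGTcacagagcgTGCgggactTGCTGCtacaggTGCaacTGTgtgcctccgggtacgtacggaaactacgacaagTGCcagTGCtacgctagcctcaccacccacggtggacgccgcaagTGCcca
GASA9: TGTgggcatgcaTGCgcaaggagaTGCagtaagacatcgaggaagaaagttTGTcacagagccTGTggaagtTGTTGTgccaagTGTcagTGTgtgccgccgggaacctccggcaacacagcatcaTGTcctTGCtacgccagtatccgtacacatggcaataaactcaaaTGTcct
GASA6: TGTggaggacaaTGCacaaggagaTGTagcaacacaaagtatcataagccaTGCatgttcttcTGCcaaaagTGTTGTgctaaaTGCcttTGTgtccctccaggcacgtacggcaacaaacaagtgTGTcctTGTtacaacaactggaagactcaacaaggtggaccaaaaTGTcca
GASA4: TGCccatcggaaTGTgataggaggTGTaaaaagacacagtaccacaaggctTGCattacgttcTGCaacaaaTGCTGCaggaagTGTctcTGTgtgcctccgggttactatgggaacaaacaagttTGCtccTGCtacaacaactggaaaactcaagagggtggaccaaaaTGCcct
GASA14: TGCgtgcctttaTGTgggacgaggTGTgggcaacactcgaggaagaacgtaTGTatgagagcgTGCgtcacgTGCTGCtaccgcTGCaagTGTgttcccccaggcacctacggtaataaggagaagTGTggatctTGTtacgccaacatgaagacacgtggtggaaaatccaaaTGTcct
GASA10: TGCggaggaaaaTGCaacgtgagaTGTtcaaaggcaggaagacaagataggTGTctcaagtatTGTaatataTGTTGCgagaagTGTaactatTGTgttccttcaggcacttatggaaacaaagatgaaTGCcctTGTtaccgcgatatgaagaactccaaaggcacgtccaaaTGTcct
GASA3: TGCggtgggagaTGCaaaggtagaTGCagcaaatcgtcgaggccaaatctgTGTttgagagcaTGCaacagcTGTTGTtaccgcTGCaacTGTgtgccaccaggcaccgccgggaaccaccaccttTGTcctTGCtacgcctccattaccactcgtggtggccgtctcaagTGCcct
GASA2: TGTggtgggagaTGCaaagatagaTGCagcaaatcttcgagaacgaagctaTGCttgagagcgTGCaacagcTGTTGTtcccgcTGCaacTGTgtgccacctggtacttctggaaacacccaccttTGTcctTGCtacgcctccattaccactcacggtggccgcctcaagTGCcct

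The spacing of the cysteine codons was identical in 12 of the 15 genes, and among these are 7 members. The exceptions among the members were *GASA10*, with 2 codons in place of 1 between the eighth and the ninth cysteine codon, and *GASA14*, with 2 in place of 1 between the tenth and the eleventh. *GASA14* was also the longest gene model, with 275 codons against 89 to 119 in the other members. Between the cysteine codons the bases varied more. Over the 174 bases of the stretch, the 21 pairs of the 7 members with the same spacing were identical at 44.8 to 87.4% of the bases, with a median of 57.5%. *GASA1* and *GASA9*, which had the lowest levels relative to wild types in the overexpressor, shared 59.8%, and *GASA4* and *GASA6*, whose levels there lay on opposite sides of wild types, shared 70.1%.

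The closest pair was *GASA2* and *GASA3*, at 87.4% of the stretch and 86.0% of 300 bases of the whole coding sequence. They lie in tandem on chromosome 4, on the minus strand and 1123 bases apart (*GASA3* at chr4:6072804-6073646 and *GASA2* at chr4:6074770-6075645), so reads of one may have been counted for the other. The remaining genes printed above are single. *GASA1* lies at chr1:28441501-28442435 on the minus strand, *GASA9* at chr1:8027126-8028168, *GASA6* at chr1:28053030-28054149, *GASA4* at chr5:4944816-4946299, *GASA14* at chr5:4826141-4828384 and *GASA10* at chr5:24111304-24112100, all 5 on the plus strand. *GASA6* shares 206 bases with the antisense gene At1g74675, which stayed below 0.3 FPKM in all 12 libraries. *GASA9* shares 11 bases with *PYG7* on the other strand. The strand setting of the counting is not stated.

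The target gene was checked before the GASA genes. Levels are FPKM, fragments per kilobase of gene, scaled by the authors to a library size that was not the total of recovered reads. It was 0.927 to 0.987 times that total in wild types and 1.01 to 1.06 times in the mutants. A single read in a gene of 1 kilobase was worth 0.0425 to 0.0553 FPKM at 17448191 to 24276381 reads per library. *pGlcT2* was at 9.31 ± 0.771 FPKM (SD, n = 4) in wild types, at 206 ± 25.1 in the overexpressor and at 3.09 ± 0.554 in *glct2*, with no overlap between the genotypes. Fold changes are differences of log2(FPKM + 1) from one limma fit over the 3 genotypes, with Benjamini-Hochberg adjustment of the p-values over all 18354 genes that reached 1 FPKM in at least 4 libraries. Past an adjusted p of 0.05 in *glct2* were 357 genes higher and 481 lower, and in the overexpressor 3441 higher and 3646 lower. These splits moved with the settings. A rescaling without the 50 highest genes gave 582 higher and 267 lower in *glct2* and 3961 higher and 3198 lower in the overexpressor. Precision-weighted recovered reads (voom), which differ from the fit on FPKM in more than the scaling, gave 1227 and 249 in *glct2* and 5776 and 2416 in the overexpressor. Of 5 leaf markers, 4 were lower in the overexpressor and 1 in *glct2*, and their summed levels ran from 12104 to 18486 FPKM (wild types), from 7589 to 11745 (overexpressor) and from 9338 to 15039 (*glct2*). Of 4 epidermis markers, 2 were lower in the overexpressor and none in *glct2*. Markers of seeds and roots summed to at most 1.05 FPKM in any library. Markers of flowers summed to 1.59 to 3.43 FPKM in wild types and 2.23 to 4.51 in *glct2*, and to 3.05 to 9.57 in the overexpressor, where replicate 2 was the highest. The part of these markers in the GASA levels was not tested. Replicate 2 of the overexpressor also stood apart in several GASA genes, and values without it are given where they differ by more than 1.5 times, or for the members with the largest differences.

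Of the 9 members, 6 reached the level needed for the fit: *GASA1*, *GASA4*, *GASA5*, *GASA6*, *GASA9* and *GASA14*. In wild types the order of the mean levels was *GASA1*, *GASA4*, *GASA14*, *GASA6*, *GASA9*, *GASA5*, *GASA10*, *GASA3* and *GASA2*. The libraries of *GASA4* (59.1 to 80.0 FPKM) and *GASA14* (41.6 to 61.6) overlapped, as did those of *GASA14* and *GASA6* (24.7 to 66.8), of *GASA6* and *GASA9* (20.8 to 51.5), and of *GASA5* (0.804 to 1.85) and *GASA10* (0.631 to 0.876). *GASA1* lay above all other members in every wild-type library, and *GASA9* lay above *GASA5* in every one.

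**Figure D1:**
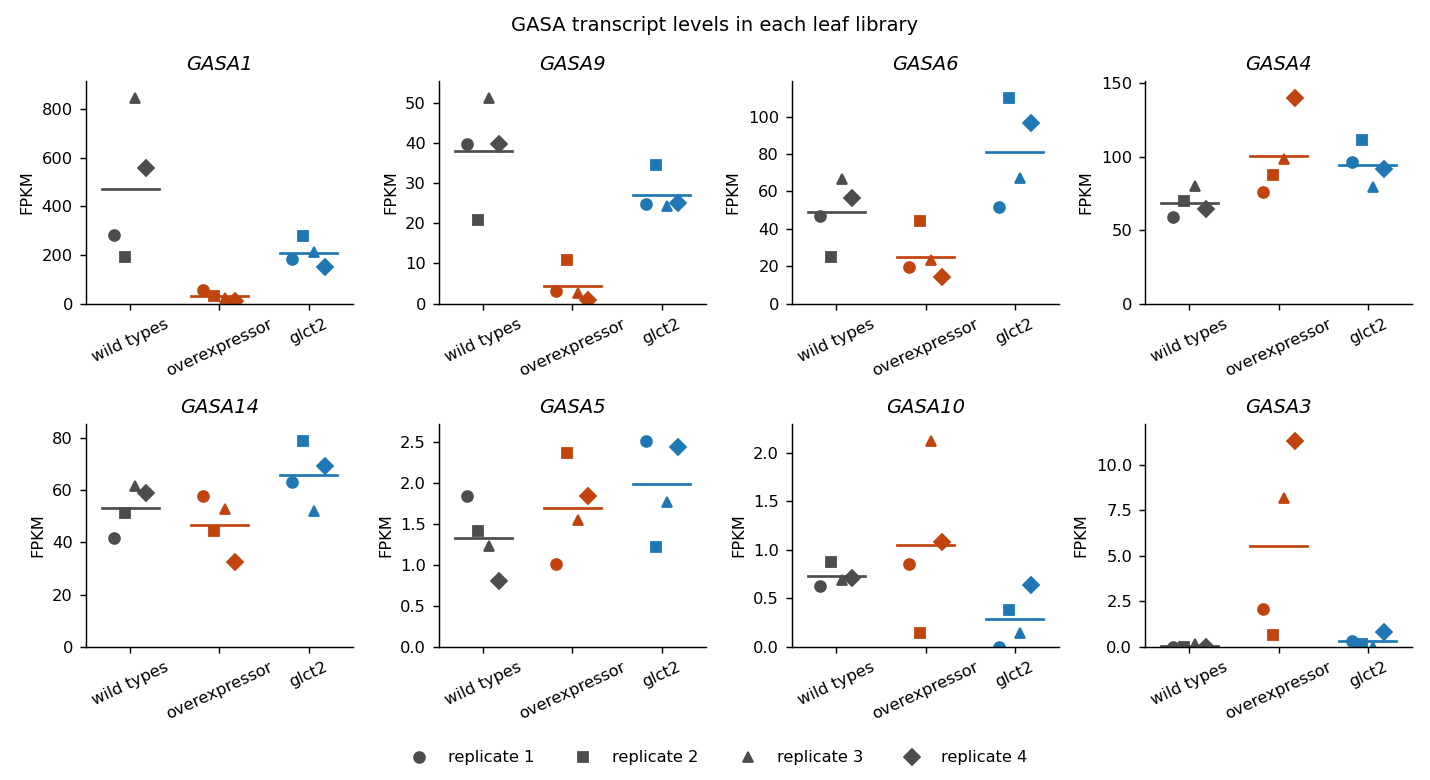
FPKM (linear axis from 0, its own scale in each panel) of 8 GASA genes in each of the 12 leaf libraries, by genotype. Symbols mark the replicate number and lines the mean of 4 libraries. *GASA1* and *GASA9* of the overexpressor lie below all wild types, *GASA6* was highest on average in *glct2* (81.4 FPKM), and *GASA3* was above 0.5 FPKM in all 4 overexpressor libraries.

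*GASA1*, a gene induced by gibberellin and repressed by brassinosteroid, was the most abundant member in wild types. Its level was 282, 192, 848 and 558 FPKM in wild types 1 to 4, 55.7, 30.7, 21.2 and 9.94 FPKM in the overexpressor, and 184, 279, 212 and 152 FPKM in *glct2*. The highest overexpressor library was below the lowest wild type, whereas *glct2* and wild types overlapped. The wild types themselves spread over 4.41-fold and the overexpressor over 5.60-fold. The means were 470 ± 296 FPKM in wild types, 29.4 ± 19.5 in the overexpressor and 207 ± 54.2 in *glct2* (SD, n = 4). The overexpressor differed from wild types by -3.96 on the log2 scale, which ranked 6 among the falls of the 18354 genes in the fit, and it was -4.07 without replicate 2. The mean in the overexpressor was 16.0-fold below that of wild types and 7.03-fold below that of *glct2*. *glct2* differed from wild types by -0.99 (95% interval -2.08 to 0.11), with an adjusted p of 0.274. In bulk leaf tissue, fewer cells that express a gene and less RNA per cell cannot be told apart.

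*GASA9* followed *GASA1* most closely among the members. It was at 39.8, 20.8, 51.5 and 39.9 FPKM in wild types, at 3.17, 10.8, 2.53 and 0.989 FPKM in the overexpressor and at 24.8, 34.6, 24.3 and 25.2 FPKM in *glct2*. All overexpressor libraries were again below all wild types, and replicate 2 was the highest of them. The log2 difference between the overexpressor and wild types was -3.11, or -3.59 without replicate 2, and it ranked 19 among the falls. The mean of 4.38 FPKM in the overexpressor was 8.68-fold below that of wild types. In *glct2* the 4 libraries lay within the range of wild types, with a log2 fold change of -0.41 (95% interval -1.35 to 0.53, adjusted p = 0.626). *PYG7*, the neighbour that shares 11 bases with it on the other strand, was at 53.2 to 65.1 FPKM over all 12 libraries.

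*GASA6* is known as an integrator of gibberellin, abscisic acid and glucose signals in germinating seeds, where it promotes cell elongation upstream of the expansin gene *EXPA1*. It was at 47.1, 24.7, 66.8 and 56.7 FPKM in wild types, at 19.4, 44.0, 23.2 and 14.0 in the overexpressor and at 51.7, 110, 67.2 and 96.5 in *glct2*. Both mutants overlapped with wild types, on opposite sides, and all 4 *glct2* libraries were above all 4 overexpressor libraries. Compared with wild types, the overexpressor was at -0.97 on the log2 scale, and at -1.27 without its replicate 2. In *glct2* it was 0.75 (95% interval -0.04 to 1.54), with an adjusted p of 0.249. The difference between the overexpressor and *glct2* was -1.72, or -2.02 without replicate 2.

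*GASA4* promotes flowering and seed growth and is expressed in meristems. Its levels were 59.1, 69.6, 80.0 and 64.2 FPKM in wild types, 76.1, 87.6, 98.1 and 140 in the overexpressor and 96.6, 111, 79.0 and 91.8 in *glct2*. Of the overexpressor libraries, 3 were above all wild types, and the same number of *glct2* libraries was. For the overexpressor this was a log2 difference of 0.52 from wild types. For *glct2* it was 0.46 (95% interval 0.10 to 0.83), with an unadjusted p of 0.0169 and an adjusted p of 0.130. This value came closest to the threshold of all members, and it passed with voom (adjusted p = 0.0414), with weights for library quality (0.0340) and without replicate 4 of the overexpressor (0.0464), while the highest of the 23 alternatives was 0.271. The difference between the mutants was 0.06 on the log2 scale, or 0.11 without replicate 2 of the overexpressor. Of 7 markers of dividing cells and meristems, 5 were tested and none of these passed in either mutant, and *CLV3* was at 0 in all libraries.

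*GASA14*, which is known to promote leaf expansion and tolerance of salt and abscisic acid, had the flattest profile of the abundant members. It was at 41.6, 51.1, 61.6 and 58.9 FPKM in wild types, at 57.7, 44.2, 52.7 and 32.3 in the overexpressor and at 63.2, 78.9, 52.1 and 69.3 in *glct2*. Log2 differences from wild types were small, at -0.20 in the overexpressor and 0.30 in *glct2* (95% interval -0.10 to 0.70, adjusted p = 0.362).

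*GASA5*, a negative regulator of flowering and stem growth under gibberellin, was low throughout. Wild types ran from 0.804 to 1.85 FPKM, the overexpressor from 1.01 to 2.36 and *glct2* from 1.21 to 2.52, which is 15 to 51 reads per library, and the 3 genotypes overlapped. Relative to wild types this is a log2 difference of 0.21 in the overexpressor, or 0.09 without its replicate 2, and of 0.35 in *glct2* (95% interval -0.07 to 0.78, adjusted p = 0.311).

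Of the 6 members tested in *glct2*, none passed the limma test at an adjusted p of 0.05, where 4.57% of all genes tested did. At an unadjusted p under 0.05 there was 1, *GASA4*, and voom called 1 after adjustment. These counts have no share over all genes beside them, and the voom median of all genes was 0.11 in *glct2*. No member separated the 4 *glct2* libraries from the 4 wild types, while 7.5% of all genes had every *glct2* library higher and 9.43% every one lower. The median log2 fold change of the 6 was 0.33 in *glct2*, beside 0.00175 for all genes tested, and 4 of the 6 were positive. In the overexpressor the median of the members was -0.58, beside 0.00328 for all genes, with *GASA4* and *GASA5* positive. There, 2 of the 6, *GASA1* and *GASA9*, lay below wild types in every library, beside 18.5% of all genes with that pattern and 15.9% with the opposite one. Against *glct2*, the overexpressor was lower in every library for *GASA1*, *GASA6* and *GASA9*, beside 16.9% of all genes. The overexpressor comparisons contain the values that chose the members.

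The 3 remaining members were below the level for the fit and are given in reads. Intervals are given for *glct2* against wild types only, and they cover counting error only. *GASA3*, known mainly from siliques and seeds, had 0, 0, 2 and 0 reads in wild types, 31, 8, 95 and 144 in the overexpressor and 4, 2, 0 and 12 in *glct2*. These are levels of 2.06, 0.623, 8.19 and 11.3 FPKM in the overexpressor, each above the highest wild type at 0.137 FPKM, with replicate 2 the lowest. Reads were summed over 4 libraries and scaled by the library size implied by the FPKM. The rate in the overexpressor was then 143 times that of wild types and 15.4 times that of *glct2*. Between *glct2* and wild types, 18 reads stood against 2, a ratio of 9.28 (95% interval 2.22 to 82.5), with overlapping libraries. The spread over the 4 overexpressor libraries was 18.2-fold, far wider than counting error. The 5 seed markers summed to 0.0534 to 0.302 FPKM in the overexpressor and 0.0943 to 0.314 in wild types, with *CRU3* and *OLEO2* at 0 in all 8 libraries. Within the overexpressor the seed markers were highest in replicates 3 and 4 (0.302 and 0.136 FPKM), which also had the most *GASA3*. These were 2 reads of *CRA1* and 4 of *OLEO1* in replicate 3, and 3 and 1 in replicate 4, too few to rank the libraries. In the other genotypes the seed markers were highest in replicate 3 of *glct2* (1.05 FPKM, with 13 reads of *SESA1*) and replicate 1 of wild types (0.314 FPKM, with 4 reads of *SESA1*). Both of these libraries had 0 reads of *GASA3*. The part of the seed markers in its level was not tested.

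*GASA2*, the tandem neighbour of *GASA3*, had 1, 0, 2 and 4 reads in the overexpressor and none in the 8 other libraries. Scaled by library size, the 7 reads are 2.40-fold a floor of 3 reads over the 4 wild types, a value that leaves out the counting error of the 7. They come from a sequence that is 86.0% identical to *GASA3*, so their origin is uncertain. *GASA10*, known from cell elongation, had 43 reads in wild types, 58 in the overexpressor and 17 in *glct2*. The rate in *glct2* was 0.408 times that of wild types (95% interval 0.218 to 0.730). The libraries ran from 0.631 to 0.876 FPKM in wild types and from 0 to 0.633 in *glct2*, so they overlapped by a margin smaller than 1 read.

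**Figure D2:**
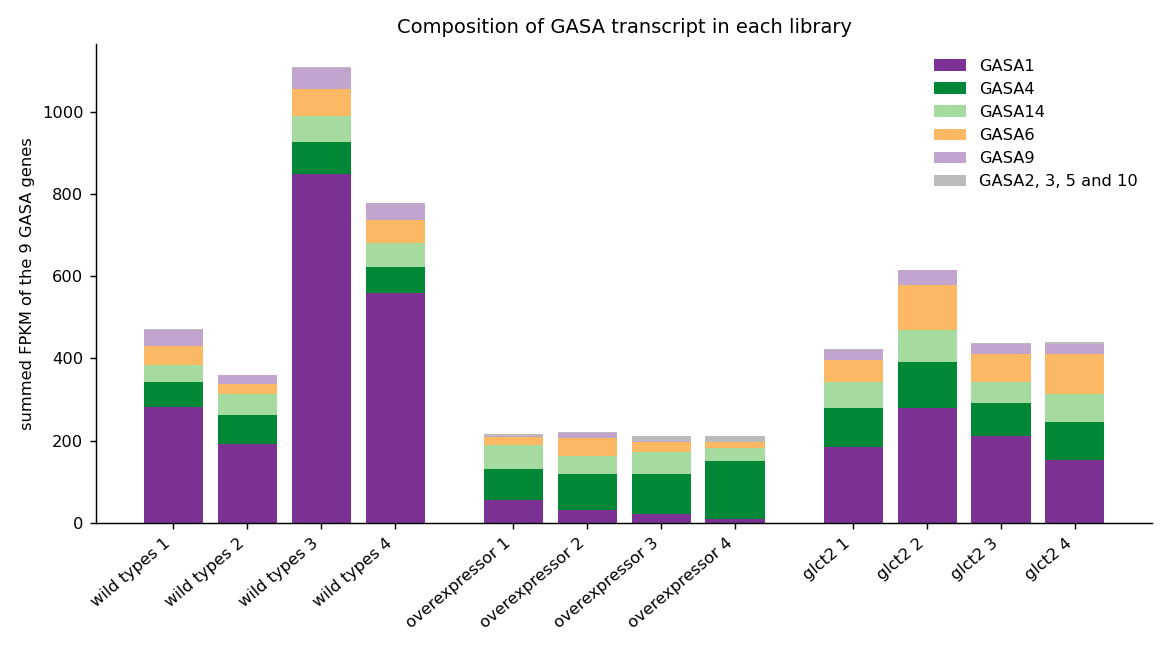
Summed FPKM of the 9 GASA genes in each library (bars from 0), divided by gene. *GASA1* makes up 53.3 to 76.4% of each wild-type bar and 4.69 to 25.8% of each overexpressor bar, and the 4 overexpressor bars are of nearly equal height (210 to 221 FPKM).

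Since FPKM is scaled by gene length, the members can be summed. The 9 genes came to 681 ± 337 FPKM in wild types, 215 ± 4.68 in the overexpressor and 479 ± 91.9 in *glct2* (SD, n = 4). *GASA1* held 65.3 ± 10.6% of this sum in wild types, 43.0 ± 5.95% in *glct2* and 13.6 ± 8.95% in the overexpressor. The ranges of this share did not overlap between wild types (53.3 to 76.4%) and *glct2* (34.7 to 48.6%), although the level of *GASA1* itself did. This share was not tested and has no counterpart over all genes, and *GASA1* did not pass the limma test in *glct2* (adjusted p = 0.274). It also rests on the wild-type values that took part in the choice of the family. *GASA4* took the first place in the overexpressor, with 47.0 ± 13.6% of the sum against 11.8 ± 5.49% in wild types, and 18.0 to 22.9% in the 4 libraries of *glct2*. Without *GASA1*, the other 8 genes summed to 210 ± 40.6 FPKM in wild types, 185 ± 17.7 in the overexpressor and 272 ± 50.7 in *glct2*. The lower sum in the overexpressor thus lay in *GASA1*, the gene that led to the choice of this family.

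The family has 6 further listed genes that were not among the members. *GASA7* was at 22.3, 22.2, 19.0 and 13.7 FPKM in wild types, at 35.8, 28.1, 42.9 and 47.3 in the overexpressor and at 39.4, 34.6, 52.4 and 32.3 in *glct2*. Both mutants were above all wild types. The rise passed the test in *glct2*, with a log2 fold change of 1.00 (SE 0.19, adjusted p = 0.0179), and in the overexpressor, with 0.96 (SE 0.19, adjusted p = 0.00217). The 2 comparisons share the wild types, and the direct difference between the mutants was -0.04 (95% interval -0.47 to 0.38). In *glct2* the adjusted p was 0.0562 without replicate 4 of wild types, 0.0511 without replicate 1 of *glct2* and 0.0517 without its replicate 3.

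At3g10185, annotated as a gibberellin-regulated family protein, was at 0.954 to 2.35 FPKM in wild types. The overexpressor ranged from 2.29 to 5.32 FPKM and *glct2* from 1.44 to 2.86 FPKM. It rose in the overexpressor by 0.79 (SE 0.23, adjusted p = 0.0188), though not without replicate 2 (0.0509) or replicate 4 (0.0575) of wild types, and its log2 fold change in *glct2* was 0.27 (adjusted p = 0.548). It shares 155 bases with *KIN7O* on the other strand. *GASA11*, *GASA12*, At2g39540 (*GASA8*) and At1g10588 had no reads in any library.

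The genes around the family were counted from a list of 40 genes of gibberellin synthesis, inactivation, perception and transport, and a list of 15 genes known to respond to gibberellin or to act beside the DELLA proteins. Of these, 21 and 15 were expressed highly enough for the test. In *glct2* none of the 36 passed with limma, beside 4.57% of all genes. At an unadjusted p under 0.05 there were 7, and voom called 3 (*KAO2*, *RGA* and *NPF3.1*, all higher). These counts have no share over all genes beside them. The voom calls over all genes were mostly higher too, with a median of 0.11 in *glct2*, so neither count is a result about the 36. In the overexpressor 10 were higher and 6 lower, beside 18.7% and 19.9% of all genes, which is 27.8% and 16.7% of the 36. The 10 higher genes include *GA2ox6*, which entered the fit only through the overexpressor, so its call is no evidence of a rise. Without replicate 2 of the overexpressor there were 10 higher and 10 lower. The median log2 fold change of the 36 genes was -0.02 in the overexpressor and 0.00145 in *glct2*.

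**Figure D3:**
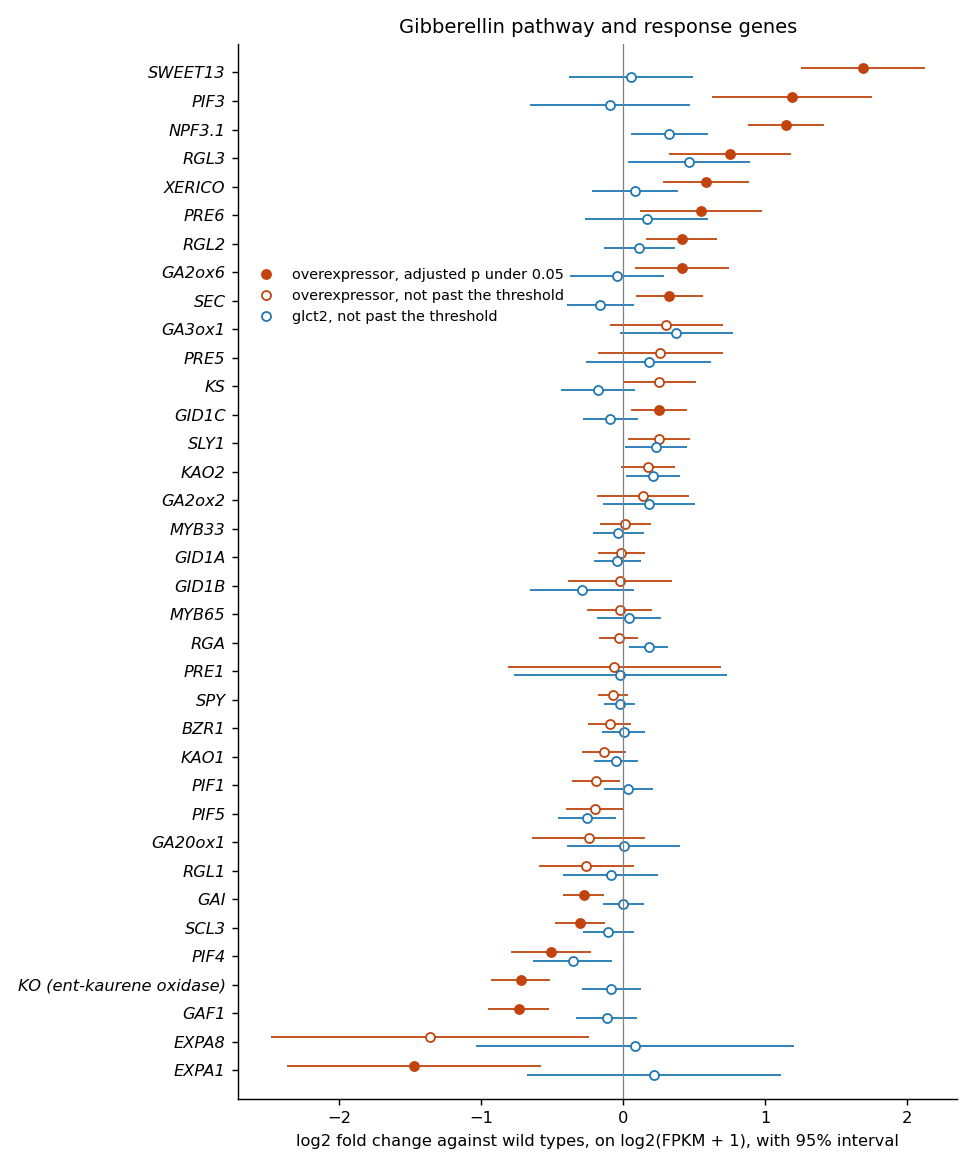
Log2 fold changes against wild types of the 36 tested genes of gibberellin synthesis, perception, transport and response, in the overexpressor (orange) and in *glct2* (blue). Bars are 95% intervals and filled points have an adjusted p under 0.05. The 16 filled points all belong to the overexpressor, 10 to the right of 0 and 6 to the left. Those to the right include *GA2ox6*, which entered the fit only through the overexpressor.

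In gibberellin synthesis, the gene of ent-kaurene oxidase (*KO* in the table), an early step, was at 10.0 to 13.2 FPKM in the overexpressor and 18.4 to 21.9 in wild types, and fell by 0.72 (SE 0.10, adjusted p = 0.000118). The later oxidases were low. Of 5 GA 20-oxidase genes 1 was tested, *GA20ox1* with genotype means of 1.26 to 1.58 FPKM, and of 4 GA 3-oxidase genes 1, *GA3ox1* with means of 1.75 to 2.63 FPKM, and neither passed in either mutant. The other genes of both groups reached at most 0.224 FPKM. *GA2ox6*, 1 of 2 tested among 11 genes of gibberellin inactivation, was at 1.32 ± 0.238 FPKM in the overexpressor, 0.759 ± 0.333 in wild types and 0.701 ± 0.247 in *glct2* (SD, n = 4). It reached 1 FPKM in the 4 overexpressor libraries and only 1 other, so it entered the fit through the group where it was high, and its call there is no evidence of a rise. Among the 3 receptor genes *GID1C* rose. Of the 5 DELLA genes, *RGL2* and *RGL3* rose and *GAI* fell in the overexpressor. *RGL3* was at 2.69 to 5.29 FPKM there and 0.990 to 2.64 in wild types, a log2 fold change of 0.75 (SE 0.20, adjusted p = 0.0101). *SEC*, whose product modifies DELLA proteins with sugar residues, rose as well. Several of these calls were fragile. Of the 23 alternatives, *GA2ox6* was lost in 14 (in 1 of them as not tested), *GID1C* in 12 and *SEC* in 8, and a replicate block lost all 3, as did leaving out replicate 1 or 4 of wild types or replicate 3 or 4 of the overexpressor. *GAI* was lost in 1, with voom.

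Both tested genes of gibberellin transport rose in the overexpressor. *SWEET13*, a sucrose exporter that also carries gibberellin, was at 30.2 to 38.9 FPKM in the overexpressor and 6.90 to 15.6 in wild types, a log2 fold change of 1.69 (SE 0.20, adjusted p = 5.69e-05). *NPF3.1*, a transporter of gibberellin and nitrate, was at 74.0 to 107 FPKM against 33.9 to 49.4, a rise of 1.15 (SE 0.12, adjusted p = 2.91e-05). For *glct2*, these 2 genes had values of 0.06 and 0.33, and neither passed the test.

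Among the genes that act beside the DELLA proteins or respond to gibberellin, *PIF3*, a bHLH factor that DELLA proteins bind, rose in the overexpressor by 1.19 (SE 0.26, adjusted p = 0.00351), from 7.66 to 13.2 FPKM in wild types to 12.2 to 33.8. *PIF4*, a related factor of elongation growth, fell by 0.51 (SE 0.13, adjusted p = 0.00810). *GAF1*, a DELLA-bound zinc finger protein, fell by 0.74 (SE 0.10, adjusted p = 0.000136), and *SCL3*, a GRAS protein that attenuates DELLA repression, fell too, though not with voom. *XERICO*, a RING protein of abscisic acid metabolism that DELLA proteins induce, rose by 0.59 (SE 0.14, adjusted p = 0.00577). *PRE6*, a small helix-loop-helix protein of elongation, rose by 0.55 (SE 0.20, adjusted p = 0.0454), and this call was lost in 8 of 23 alternatives.

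*EXPA1*, the cell wall expansin named above beside *GASA6*, was at 107, 55.5, 135 and 112 FPKM in wild types, at 33.5, 89.1, 23.7 and 19.5 in the overexpressor and at 98.8, 154, 84.5 and 129 in *glct2*. It fell in the overexpressor by 1.47 on the log2 scale (SE 0.41, adjusted p = 0.0139), and by 1.92 without replicate 2 (adjusted p = 0.000425). Its log2 fold change in *glct2* was 0.22 (adjusted p = 0.804). As with *GASA6*, the highest overexpressor library was replicate 2 and the lowest wild type was replicate 2. By the measure described next, *EXPA1* ranked 32 of 18353 genes in likeness to *GASA6*, and *EXPA8*, another expansin gene of the list, ranked 158. The log2 fold change of *EXPA8* in the overexpressor was -1.36 (adjusted p = 0.0541), or -1.94 without replicate 2 (adjusted p = 0.00140). In *glct2* it was 0.08 (adjusted p = 0.947).

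**Figure D4:**
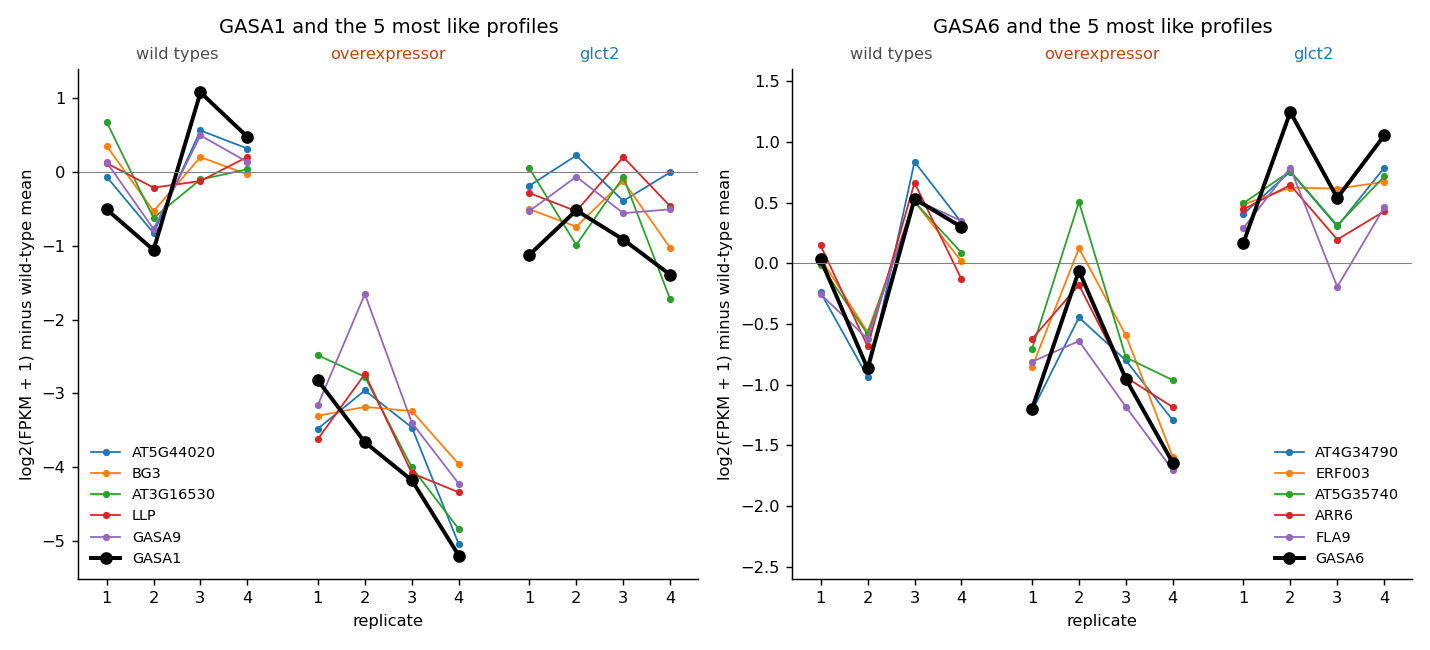
Profiles over the 12 libraries, as log2(FPKM + 1) minus the mean of wild types, of *GASA1* (left, black) and *GASA6* (right, black) with the 5 genes most like each. Lines join the libraries of 1 gene within a genotype only to trace it, since replicates have no order. All genes of the left panel lie lower in every overexpressor library than in any wild type, as did 18.5% of all genes. The genes beside *GASA1* were picked for likeness to it over these libraries, so their pattern is no separate result. *GASA6* lies above 0 in all 4 *glct2* libraries.

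The genes most like *GASA1* and *GASA6* were taken by the root mean square difference of log2(FPKM + 1), centred on the mean of wild types, over all 12 libraries and among all genes in the fit. The libraries of a genotype share their plants' condition and the overexpressor libraries chose *GASA1*, so this is a description. Nearest to *GASA1* were At5g44020, an acid phosphatase of the HAD family (0.685), *BG3*, a probable endo-1,3-beta-glucosidase of the pathogenesis-related kind (0.714), the lectin-like genes At3g16530 (0.745) and *LLP* (0.799), and *GASA9* (0.823). At5g44020 had means of 95.5, 6.71 and 85.5 FPKM in wild types, the overexpressor and *glct2*, and *LLP* had 169, 13.4 and 142 FPKM. Among the members, *GASA6* ranked 1252, *GASA14* 4938, *GASA5* 15598 and *GASA4* 17205 of 18353 in likeness to *GASA1*.

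Nearest to *GASA6* were At4g34790 (0.273), the ethylene-response factor gene *ERF003* (0.302), At5g35740 (0.376), *ARR6* (0.382), a type-A response regulator induced by cytokinin, and *FLA9* (0.388), a fasciclin-like arabinogalactan protein of the cell wall. They were less abundant than *GASA6* in every genotype. *ERF003* was at 4.87, 2.74 and 7.61 FPKM in wild types, the overexpressor and *glct2*, and *FLA9* at 23.8, 10.5 and 29.6 FPKM. All 5 had their lowest mean in the overexpressor and their highest in *glct2*, as *GASA6* did, and their wild-type replicate 2 was the lowest wild type. They were picked for likeness to *GASA6* over these libraries, so these shared traits are no separate result.

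The 250 bases upstream of the gene start are printed for *GASA1* and *GASA9*, because *GASA9* was the member most like *GASA1* by the measure above. The windows are from the RefSeq genome TAIR10.1, 5′ to 3′ on the gene's strand, at chr1:28442436-28442685 (minus strand) for *GASA1* and chr1:8026876-8027125 (plus strand) for *GASA9*. Capitals mark matches to the motifs listed after them. 
GASA1: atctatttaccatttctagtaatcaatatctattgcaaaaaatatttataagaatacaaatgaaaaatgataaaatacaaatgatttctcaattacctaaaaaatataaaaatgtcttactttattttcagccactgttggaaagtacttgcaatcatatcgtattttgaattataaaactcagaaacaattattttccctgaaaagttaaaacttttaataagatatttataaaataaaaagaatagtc
GASA9: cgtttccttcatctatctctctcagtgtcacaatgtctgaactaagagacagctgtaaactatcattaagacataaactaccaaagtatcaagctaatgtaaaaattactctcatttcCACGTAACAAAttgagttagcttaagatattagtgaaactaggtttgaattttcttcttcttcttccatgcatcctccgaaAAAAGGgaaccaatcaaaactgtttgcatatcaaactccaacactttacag

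The windows were searched on both strands for 5 motifs: the gibberellin response element TAACAAA, the pyrimidine box CCTTTT, the TATCCA element, the G-box CACGTG and the core ACGTG of the abscisic acid response element. *GASA1* held none of them. *GASA9* held TAACAAA, 128 bases before its start, next to a reverse ACGTG with which it overlaps, and a reverse CCTTTT 51 bases before its start. TAACAAA was in 1 of the 9 members and in 16.1% of 27419 windows of protein-coding genes, CCTTTT in 1 and 25.1%, TATCCA in 1 (*GASA2*) and 13.6%, and CACGTG in none and 6.48%. The core ACGTG was in 4, *GASA3*, *GASA4*, *GASA5* and *GASA9*, and in 22.9% of windows. The members with a match include genes that were lower, higher and similar in the overexpressor. These matches are letters in a window and not sites of binding.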

How the data were processed

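RNA of leaves was sequenced in 12 libraries, 4 for each of 3 genotypes, which Novogene built with strand information. According to the submitters' processing notes, TAIR10 was the genome and fastp, HISAT2 2.0.5 and StringTie 1.3.3 were used. The authors deposited the levels of genes as FPKM. The counting program, the annotation and the setting for strand are not given in the sources used here. FPKM times gene length was a whole multiple of one step per library for all values (tolerance 0.01), and these multiples, the recovered reads, summed to 17448191 to 24276381 per library.

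The members and gene lists were chosen with earlier results of these data known. Values were log2(FPKM + 1), which understates changes of low genes. One limma 3.58.1 fit over the 3 genotypes (R 4.3.3, eBayes with a trend, no replicate block) was made on the 18354 genes that reached 1 FPKM in at least 4 libraries, with Benjamini-Hochberg adjustment over all of them and a threshold of 0.05. The study names no test for these data. Replicate numbers are in the labels, which do not say what they share. Deviations from the genotype means correlated at 0.12 to 0.18 in all 4 same-numbered pairs of the overexpressor and *glct2*, and at -0.18 to 0.08 in their 12 other pairs. Pairs of wild types and *glct2* with unlike numbers ran from -0.39 to 0.35. The higher values of the same-numbered mutant pairs therefore do not establish a pairing. The replicates are biological replicates of the study, and how many plants each holds is not given in the sources used here. Named were all members, the 6 other GASA genes, *pGlcT2*, of the gibberellin lists every gene called in *glct2* and the 10 largest called changes in the overexpressor, and the 5 genes most like *GASA1* and *GASA6*. Other called genes of these lists, *GA20ox1*, *GA3ox1* and *EXPA8* were named after their values were seen. Alternatives were other pseudocounts (0.1 and 5), filters (none, and 5 FPKM), scalings, a replicate block, 2 groups alone, library weights (statmod 1.5.0), voom on recovered reads, and leaving out each library. The median-of-ratios factors were the same in all libraries, so that setting changed nothing. Sequences were read with Biopython 1.88 from RefSeq TAIR10.1. Tables were made with pandas 2.3.3 and scipy 1.17.1, figures with matplotlib 3.10.9. The 3 columns of the authors' means were only compared with the libraries.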

Additional observations from a re-analysis of the deposited data

Results flagged for a closer look

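Of the values, 4 lay apart from the other libraries of their genotype by Dixon's test at the 95% level, out of 64 gene and genotype groups checked, and chance alone gives about 1 in 20. *GASA9* was at 34.6 FPKM in replicate 2 of *glct2* and at 24.3 to 25.2 FPKM in the other libraries. *GASA3* was at 0.137 FPKM (2 reads) in replicate 3 of wild types and at 0 in the other wild types. With the others at 0, the ratio of gap to range is 1 for any value above 0, so this flag carries no information. *PIF3* was at 13.2 FPKM in replicate 2 of wild types, against 7.66 to 8.14 FPKM in the others, and *RGL3* was at 5.29 FPKM in replicate 4 of the overexpressor, against 2.69 to 3.13 FPKM.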

How the results depend on the processing

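The fit was repeated under 23 alternatives, 12 of which leave out 1 library. The number of genes called in *glct2* depended most on the settings. Higher there were 357 genes, 225 with no filter, 582 after rescaling without the 50 highest genes, 820 with library weights, 1227 with voom, and 92 to 508 with 1 library left out, fewest without replicate 4 of wild types. Lower were 481, 267 after rescaling, 1021 with weights, 249 with voom, and 109 to 630 with 1 library left out. In the overexpressor voom gave 5776 higher and 2416 lower. The median of all genes shifted under voom to 0.14 in the overexpressor and 0.11 in *glct2*, so its direction calls are relative to that. Voom was scaled to the total of recovered reads, which the FPKM were not. Members called higher in *glct2* were 1 with weights, 1 with voom and 0 to 1 with 1 library left out, each time *GASA4*. Genes of the gibberellin lists called in *glct2* were 2 with weights and 3 with voom. In the overexpressor, leaving out 1 library gave 6 to 10 higher (6 without replicate 1 of wild types) and 6 to 10 lower (10 without replicate 2 of the overexpressor, with *EXPA8*, *GA20ox1*, *PIF1* and *RGL1* added). Signs turned for small differences. In *glct2*, *PIF3* was 0.0049 and *KO* 0.023 with voom, and with 1 library left out *SWEET13* ran from -0.11 to 0.24, *EXPA1* from -0.048 to 0.37 and *PIF3* from -0.16 to 0.074. Between the mutants, *GASA4* was -0.063 with weights and -0.11 to 0.18 with 1 library left out, and *GASA7* 0.071 and -0.15 to 0.095. The cause was not tested.

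Replicate numbers did not pair the mutants with wild types, since deviations of same-numbered libraries correlated at -0.33 to 0.15 (overexpressor) and -0.29 to 0.33 (*glct2*), 4 pairs each. With a replicate block 215 genes were higher and 278 lower in *glct2* against wild types, no member was called there, and 13 of the 16 gibberellin genes were called in the overexpressor, without *GA2ox6*, *GID1C* and *SEC*. Between the mutants, which the numbers did pair, no call of a gene is reported, so the block had none to change. *GASA2*, *GASA3* and *GASA10* are limited by depth, at 0 to 144 reads per library.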
